A study of Homo sapiens with 10 samples.

Results

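SLIT and class 3 semaphorin signalling genes were followed through RNA-sequencing libraries of HAP1 cells, a near-haploid adherent human line derived from a leukemia. The set held 10 of the 59453 genes in the count tables: the ligands SLIT1, SLIT2 and SLIT3, the receptors ROBO1 and ROBO2, the ligands SEMA3A, SEMA3C and SEMA3D, and the receptors NRP1 and NRP2. The set was built around SLIT3, which was selected on its low level in the OGG1-/ clones compared with WT in an earlier look at these libraries. The other 9 were added as relatives and partners by a list drawn up with results of these data known. Which of their values entered that choice is not recorded, so the p-values of these 9 may not be independent of it. The SLIT3 values in OGG1-/ against WT, on which it was selected, are a description with no test. All 10 genes had enough reads to be tested.

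The libraries came from WT cells and from cells lacking the DNA glycosylases MUTYH (MUTYH-/), OGG1 (OGG1-/) or both (DKO, MUTYH-/ X OGG1-/), with 2 clones of each genotype and no treatment. OGG1 removes 8-oxoguanine, an oxidized form of guanine, from DNA, and MUTYH removes the adenine mispaired with it. WT clones 2 and 11 were also sampled, as a further 2 libraries, 24 h after exposure to 100 µM hydrogen peroxide (H2O2), an oxidant. The numbers were 2 libraries each of WT (clones 2 and 11), MUTYH-/ (clones 7 and 8), OGG1-/ (clones 1 and 22), DKO (clones 4 and 14) and H2O2-treated WT, and no knockout clone was treated. Each knockout came from CRISPR-Cas9 editing followed by growth from a single cell. Both DKO clones descend from 1 of the OGG1-/ clones, which by the product number in the paper matches clone 22. OGG1-/ clone 22 and both DKO clones are thus 1 lineage among the libraries lacking OGG1. The p-values therefore measure the spread between these clones, and a clone's own history cannot be told apart from its genotype.

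SLITs are large secreted proteins that bind ROBO receptors on the cell surface, mostly to repel growing axons and migrating cells. Class 3 semaphorins are secreted as well, and bind neuropilins, which have no signalling domain of their own and pass the signal on through plexin A receptors. Both systems were described in the nervous system, and also act in blood vessels, in epithelia and in tumor cell lines, where they alter cell spreading and movement.

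Totals were 22225091 to 22674964 counts per library, and levels are given as CPM, counts per 1000000 counts after TMM scaling of library size. The 10 genes together took 0.0176% to 0.0437% of the counts. OGG1 RNA was 12.2 and 13.1 CPM in WT, 1.22 CPM in OGG1-/ clone 1, 11.3 CPM in OGG1-/ clone 22 and 9.64 and 9.84 CPM in DKO. MUTYH RNA was 2.21 to 5.38 CPM over all libraries. Small insertions or deletions need not lower the RNA of the gene they disrupt. Apart from OGG1-/ clone 1, these values therefore neither bear out nor contradict the genotype labels. The paper reports that the loss of both proteins was checked in every clone with targeted mass spectrometry. Vimentin (VIM, 196 to 499 CPM) and N-cadherin (CDH2, 80.2 to 224 CPM), typical of adherent mesenchymal cells, were high in every library. Of the epithelial genes on the same marker list, the keratins KRT8 (8.48 to 45.4 CPM) and KRT18 (27.4 to 54.1 CPM) were present in every library. EPCAM was 0.139 to 2.96 CPM, and E-cadherin (CDH1) was at most 0.0889 CPM. In each group 3 of 7 haematopoietic markers were at 0, and the 7 summed to 0.277 to 1.48 CPM per library. In bulk RNA, fewer cells expressing a gene and less RNA per cell cannot be told apart.

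SLIT3 and SLIT2 also host microRNA genes, MIR218-2 in SLIT3 on chromosome 5 and MIR218-1 in SLIT2 on chromosome 4. Both encode the same mature microRNA, miR-218-5p, for which ROBO1 is a known target. Its sequence is shown because both ligand genes carry it. The capitals mark the seed, bases 2 to 8, and the sequence is from RefSeq (GRCh38.p14), at chr5:168768211-168768231 on the minus strand and chr4:20528299-20528319 on the plus strand.
hsa-miR-218-5p: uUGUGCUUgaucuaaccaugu
The libraries did not measure mature microRNAs. The hairpin gene MIR218-1 had no counts in any library and MIR218-2 had at most 2.

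The promoters of SLIT3 and SLIT2 are shown because these related ligands differed in how they varied between genotypes. Windows of 250 bases before to 50 bases after the annotated start were taken from RefSeq (GRCh38.p14), where 8 of the 10 genes had entries by symbol, and SEMA3A and NRP1 had none. The SLIT3 window is chr5:169301090-169301389 and lies on the minus strand, and the SLIT2 window is chr4:20251655-20251954 on the plus strand. Capitals mark GC boxes (GGGCGG on either strand).
SLIT3: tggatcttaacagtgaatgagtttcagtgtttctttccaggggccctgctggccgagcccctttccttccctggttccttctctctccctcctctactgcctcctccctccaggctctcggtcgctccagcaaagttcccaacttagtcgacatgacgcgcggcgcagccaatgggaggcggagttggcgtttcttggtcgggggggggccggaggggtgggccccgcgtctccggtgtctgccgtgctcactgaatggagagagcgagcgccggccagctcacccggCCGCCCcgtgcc
SLIT2: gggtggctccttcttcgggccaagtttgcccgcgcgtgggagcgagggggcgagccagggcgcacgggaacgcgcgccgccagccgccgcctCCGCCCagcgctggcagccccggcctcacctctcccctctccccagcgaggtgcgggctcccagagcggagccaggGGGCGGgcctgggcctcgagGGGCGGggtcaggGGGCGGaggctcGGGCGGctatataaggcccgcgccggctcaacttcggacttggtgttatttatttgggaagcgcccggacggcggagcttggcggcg
The SLIT3 window held 1 GC box, 22 CpG sites and 64.7% G and C, and the SLIT2 window held 5 GC boxes, 36 CpG sites and 74.3% G and C. The SLIT1 window had 1 GC box, 27 CpG sites and 68% G and C. Among 34796 promoter windows of the same length, 44.9% held a GC box, and the medians were 14 CpG sites and 58.7% G and C. None of the 11 windows of the 8 genes held the letters TATAAA, a form of the TATA box found in 11.6% of all windows. None held an AP-1 site (TGANTCA, in 7.73%), and both were searched on both strands. Other forms of the TATA box were not searched, and the SLIT2 window holds the similar letters tatataag. A match to these letters is a description of the sequence only.

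Levels can be compared between genes only per length, as CPM per kilobase of exon. On that scale, ROBO1 was highest in WT, at a mean of 15.3 CPM per kilobase over 2 clones, followed by NRP1 at 5.68 and SLIT2 at 4.45, and NRP1 lay within the range of the 2 SLIT2 values. SEMA3A at 1.24, ROBO2 at 1.17 and SEMA3D at 1.17 formed a middle group whose ranges overlapped, and the low values of ROBO2 and SEMA3D, but not of SEMA3A, reached into the ranges below. SLIT3 at 0.397, NRP2 at 0.358, SLIT1 at 0.328 and SEMA3C at 0.244 were lowest, and the NRP2 range overlapped each of the other three. WT cells thus had RNA for at least 1 ligand and 1 receptor of each system, with receptors above ligands per length for ROBO1 and NRP1. The strip plot of CPM shows all 10 genes in each library.

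**Figure D1:**
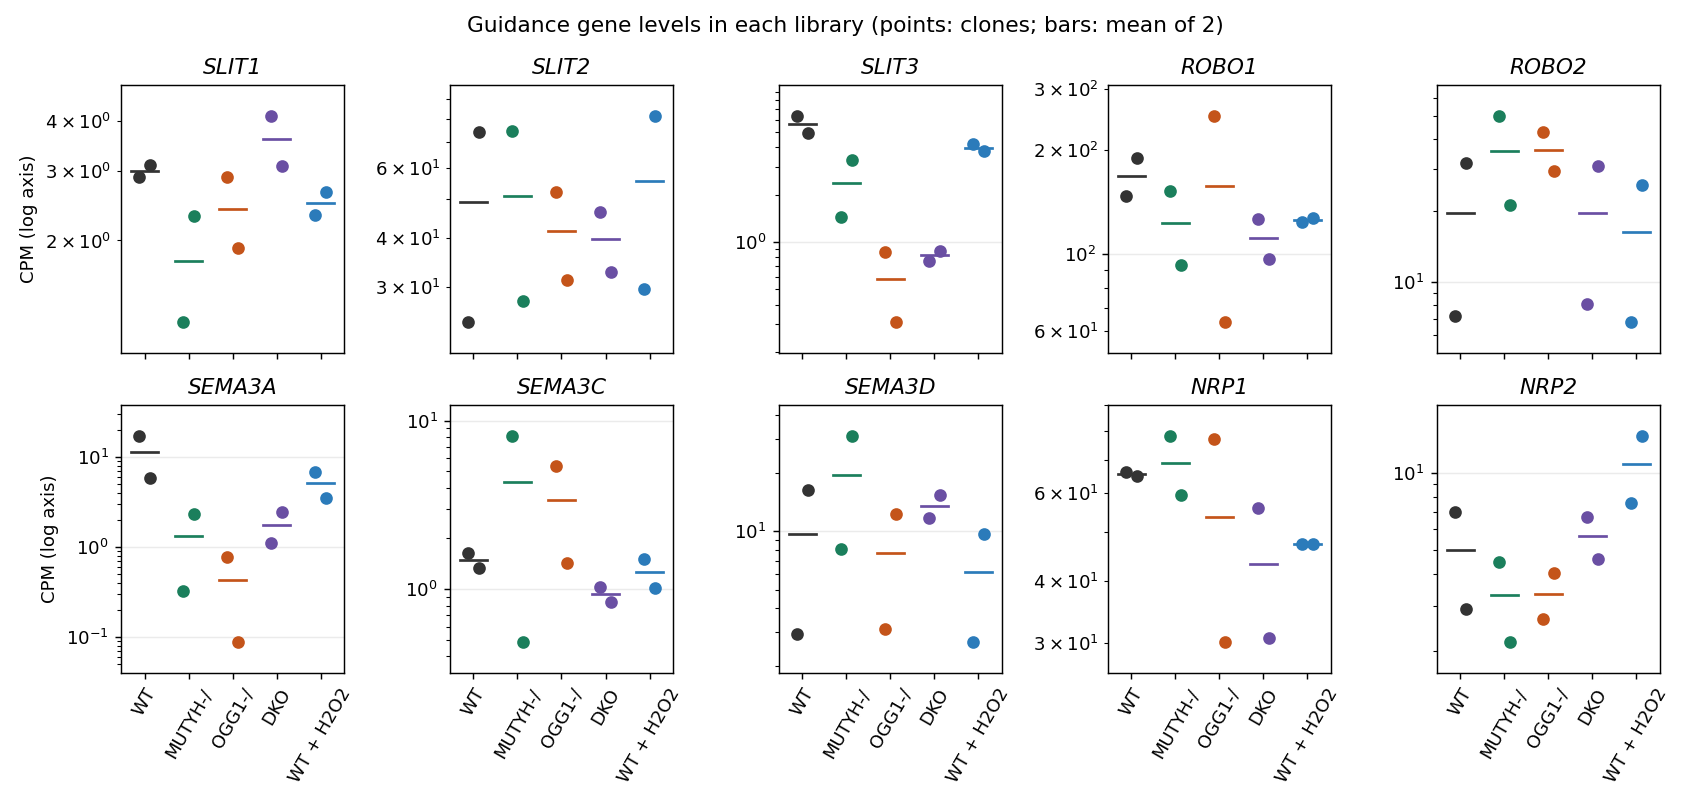
Level of each guidance gene in CPM (log axis, own scale per gene) in every library, by genotype and treatment. Points are clones and bars the mean of 2. SLIT3 and SEMA3A in the 6 knockout libraries lie below both WT and both treated WT libraries, while the other 8 genes overlap.

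SLIT3, the SLIT that gave the set its start, was lowest where OGG1 was lacking. The gene lies at chr5:168661740-169301139 on the minus strand (GRCh38). It measured 6.35 and 4.97 CPM in WT clones 2 and 11, 1.43 and 3.33 CPM in MUTYH-/ clones 7 and 8, 0.859 and 0.311 CPM in OGG1-/ clones 1 and 22, and 0.762 and 0.883 CPM in DKO clones 4 and 14. In counts these were 143 and 112 for WT, 31 and 75 for MUTYH-/, 19 and 7 for OGG1-/, and 17 and 20 for DKO. The 3 levels did not overlap: WT was above MUTYH-/, and MUTYH-/ was above both genotypes lacking OGG1, which overlapped each other.

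The fitted log2 fold change of SLIT3 against WT was -1.25 ± 0.52 (SE) in MUTYH-/, -3.26 ± 0.58 in OGG1-/ and -2.77 ± 0.56 in DKO. All 3 use the WT libraries in which SLIT3 was chosen, and are given as values. DKO against MUTYH-/ compares other libraries, at -1.52 ± 0.56, but both DKO clones descend from an OGG1-/ clone and the fit takes its spread from all 8 untreated libraries, so this value is not independent of the choice either and is given without a test. Without MUTYH-/ clone 8, DKO clone 4 or DKO clone 14 the log2 fold change was -0.80, -1.43 or -1.64 and no longer passed the call. DKO differed from OGG1-/ by 0.49 ± 0.60, less than the spread between clones. Averaged over both backgrounds, clones lacking OGG1 stood at -2.39 ± 0.40 against those with OGG1 (given without a test). For SLIT3 all 4 libraries lacking OGG1 were below all 4 untreated libraries with OGG1, an order that 1.55% of all tested genes showed. The choice of SLIT3 used 4 of these 8 libraries, so nothing is read from this share.

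Antisense transcripts could add reads to SLIT3 if counting ignored strand, which is not given in the sources used here. SLIT3 overlaps 8 annotated genes, 5 of them antisense. SLIT3-AS1 had no counts and SLIT3-AS2 at most 0.308 CPM. KRT8, a keratin, and EPCAM, an epithelial adhesion protein, also differed between clones lacking and having OGG1, with log2 fold changes of 1.42 ± 0.39 and 2.10 ± 0.41 and adjusted p (Benjamini-Hochberg over 17881 genes) of 1.00 and 0.97 in the quasi-likelihood test of edgeR. CD34, a progenitor marker, differed by 2.10 ± 0.44 at no more than 1.03 CPM. The part of such marker differences in the SLIT3 values was not tested.

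SLIT1 was low throughout, at 2.89 and 3.10 CPM in WT, 1.25 and 2.31 CPM in MUTYH-/, 2.89 and 1.91 CPM in OGG1-/ and 4.12 and 3.09 CPM in DKO. Both DKO libraries were above all 4 single-knockout libraries, both MUTYH-/ libraries were below both WT libraries, and the other pairs of genotypes overlapped. The shares of all tested genes with these orders were not computed, so nothing is read from them. The log2 fold change of DKO against MUTYH-/ was 1.03 ± 0.40, with P of 0.0354 and an adjusted p of 1.00 in edgeR. It was 1.03 without WT clone 2, 1.02 without WT clone 11, 0.66 without MUTYH-/ clone 7 and 0.79 without DKO clone 4, each with P above 0.05. The readthrough gene ARHGAP19-SLIT1 overlaps SLIT1 on the same strand. How reads that match both were counted is not given in the sources used here.

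SLIT2 was the most abundant SLIT and differed more between the 2 clones of a genotype than between genotypes. It measured 24.5 and 74.1 CPM in WT, 74.4 and 27.7 CPM in MUTYH-/, 52.2 and 31.2 CPM in OGG1-/ and 46.6 and 32.7 CPM in DKO. Every genotype had 1 high and 1 low clone, and all genotypes overlapped. The log2 fold changes against WT were 0.05 ± 0.61, -0.24 ± 0.62 and -0.31 ± 0.62 for MUTYH-/, OGG1-/ and DKO.

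The ROBO receptors did not pass the call in any comparison. ROBO1, the receptor with the highest level, measured 147 and 190 CPM in WT, 152 and 93.1 CPM in MUTYH-/, 252 and 63.7 CPM in OGG1-/ and 126 and 96.6 CPM in DKO. The widest gap was inside OGG1-/, where clone 1 was the highest and clone 22 the lowest of all libraries. ROBO2, a second SLIT receptor, measured 7.19 and 31.9 CPM in WT, 50.3 and 21.1 CPM in MUTYH-/, 42.8 and 29.4 CPM in OGG1-/ and 8.11 and 31.0 CPM in DKO. WT clone 2 and DKO clone 4 were low and the other 6 untreated libraries were at 21.1 CPM or more. Log2 fold changes against WT for ROBO1 and ROBO2 ran from -0.59 to 0.88, with standard errors of 0.57 to 0.82.

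SEMA3A, a repellent ligand for NRP1, was lower in all 6 knockout libraries than in either WT clone. Its levels were 17.2 and 5.77 CPM in WT clones 2 and 11, 0.324 and 2.31 CPM in MUTYH-/ clones 7 and 8, 0.769 and 0.0889 CPM in OGG1-/ clones 1 and 22, and 1.12 and 2.43 CPM in DKO clones 4 and 14. In counts these were 387 and 130, 7 and 52, 17 and 2, and 25 and 55. The 3 knockout genotypes overlapped each other except OGG1-/ and DKO, and the OGG1-/ value of clone 22 rested on 2 counts. With SLIT3, SEMA3A was 1 of 2 genes of the 10 with every knockout library below both WT libraries, which 1.45% of all tested genes showed. For SLIT3 part of that order was fixed by its choice. Both were also below both treated WT libraries.

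The log2 fold change of SEMA3A against WT was -3.12 ± 1.05 in MUTYH-/ (P of 0.0192), -4.72 ± 1.17 in OGG1-/ (P of 0.0044) and -2.69 ± 1.02 in DKO (P of 0.0322), with edgeR adjusted p of 1.00, 1.00 and 1.00. The 3 comparisons share the same 2 WT libraries, which themselves differed 2.98-fold. Whether these values led to the listing of SEMA3A is not recorded, so its p-values may not be independent of that choice. The call in MUTYH-/ was lost without WT clone 2 (-2.14) or MUTYH-/ clone 7 (-2.32), and that in DKO without WT clone 2 (-1.70), DKO clone 4 (-2.25) or DKO clone 14 (-3.35). The call in OGG1-/ held without any 1 library, with log2 fold changes from -6.93 without OGG1-/ clone 1 to -3.74 without WT clone 2. The DESeq2 Wald test gave adjusted p of 0.493, 0.00524 and 0.672 for SEMA3A in MUTYH-/, OGG1-/ and DKO.

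In each of the 3 comparisons with WT, 2 of the 10 genes were called (a log2 fold change beyond 1 either way with P no higher than 0.05), namely SLIT3 and SEMA3A, both lower. Over all tested genes the call was made for 1.19% in MUTYH-/, 1.67% in OGG1-/ and 1.77% in DKO. Since SLIT3 was chosen from WT and OGG1-/ libraries, nothing is read from its part in these counts. What led to the listing of SEMA3A is not recorded, so its part is a description as well. The SLIT3 call in MUTYH-/ was lost without WT clone 2 (-1.07), WT clone 11 (-1.42), MUTYH-/ clone 7 (-0.78), DKO clone 4 (-1.25) or DKO clone 14 (-1.25). The median log2 fold change of the 10 genes was -0.205, -0.30 and -0.45 for MUTYH-/, OGG1-/ and DKO, against 0.013, 0.015 and 0.00079 for all tested genes. No gene of the 10 had an adjusted p under 0.05 in edgeR. With DESeq2, SEMA3A in OGG1-/ did. The SLIT3 comparisons of OGG1-/ and DKO with WT use libraries on which SLIT3 was chosen, so their adjusted p is not read.

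**Figure D2:**
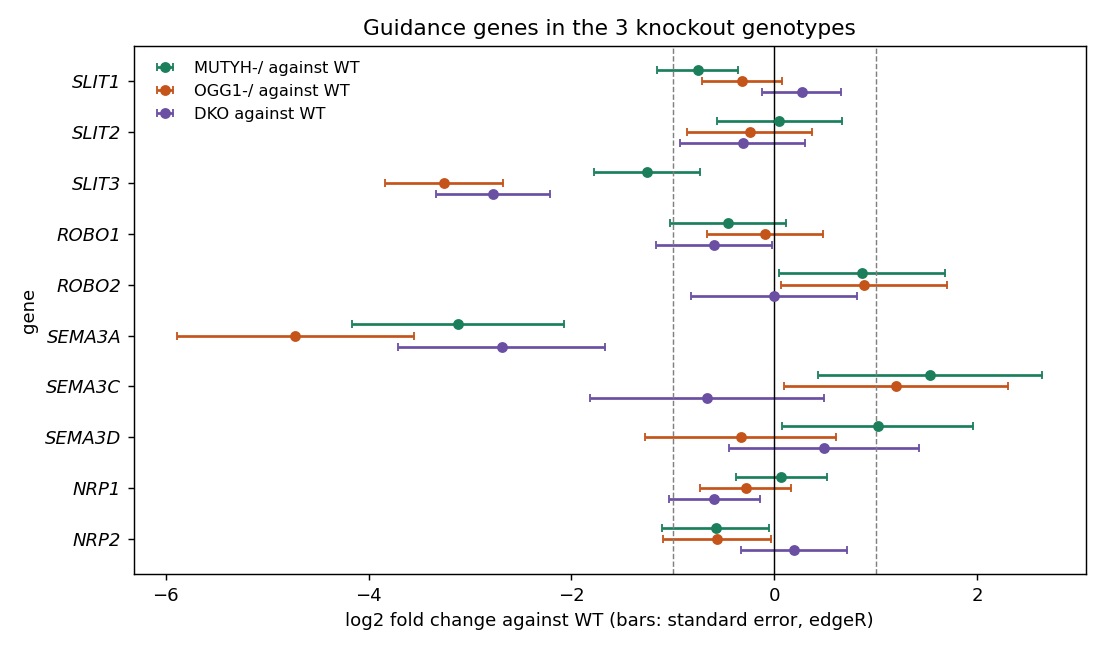
Log2 fold change of each guidance gene in the 3 knockout genotypes against WT (horizontal axis) with its standard error from edgeR as bars. Dashed lines mark a log2 fold change of 1 either way. SLIT3 and SEMA3A lie left of -1 in all 3 genotypes, and no other gene passed the call.

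SEMA3C, a ligand of both neuropilins, ranged from 0.488 CPM in MUTYH-/ clone 8 to 8.13 CPM in MUTYH-/ clone 7, so that the extremes of the untreated libraries were 2 clones of 1 genotype. It measured 1.64 and 1.33 CPM in WT, 5.38 and 1.42 CPM in OGG1-/ and 1.03 and 0.839 CPM in DKO. Both DKO libraries were below both WT libraries, an order whose share over all tested genes was not computed, with a log2 fold change of -0.66 ± 1.16. SEMA3D measured 2.93 and 16.4 CPM in WT, 8.13 and 31.3 CPM in MUTYH-/, 3.12 and 12.3 CPM in OGG1-/ and 11.7 and 15.4 CPM in DKO. All genotypes overlapped for SEMA3D, whose largest log2 fold change against WT was 1.02 ± 0.94 in MUTYH-/.

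The 3 class 3 semaphorins and SEMA3E, which is not one of the 10, lie on the minus strand of chromosome 7 within 4.44 Mb, in the order SEMA3C, SEMA3E, SEMA3A, SEMA3D. SEMA3E lies 0.307 Mb from SEMA3A and was picked out for this position and after its values were seen. It measured 33.3 and 31.8 CPM in WT, 23.99 and 24.98 CPM in MUTYH-/, 25.4 and 21.0 CPM in OGG1-/ and 23.1 and 26.2 CPM in DKO. All 6 knockout libraries were below both WT libraries, as for SEMA3A, but by less, with log2 fold changes of -0.41 ± 0.17, -0.49 ± 0.17 and -0.40 ± 0.17, none of them called. SEMA3C and SEMA3D at the ends of the group did not share this order.

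The neuropilins passed the call in no genotype comparison. NRP1 measured 66.0 and 64.9 CPM in WT, 78.1 and 59.5 CPM in MUTYH-/, 77.0 and 30.2 CPM in OGG1-/ and 55.9 and 30.7 CPM in DKO. Both DKO libraries were below both WT libraries, with a log2 fold change of -0.59 ± 0.45 (P of 0.23). NRP2 measured 7.01 and 2.93 CPM in WT, 4.48 and 2.17 CPM in MUTYH-/, 2.67 and 4.04 CPM in OGG1-/ and 6.72 and 4.59 CPM in DKO. Both DKO libraries were above all 4 single-knockout libraries for NRP2, but within the WT range, and the log2 fold changes were 0.77 ± 0.53 against MUTYH-/ and 0.76 ± 0.53 against OGG1-/. For both neuropilins the shares of all tested genes with such orders were not computed, so nothing is read from them.

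The further comparisons between genotypes asked whether losing the second glycosylase altered these genes. In DKO against MUTYH-/, 2 of the 10 were called, SLIT1 higher and SLIT3 lower, against 1.99% of all tested genes, and DESeq2 called SEMA3C as well, at a lower level. The SLIT3 call is not independent of its choice, as given above. In DKO against OGG1-/ none of the 10 was called, against 1.44%, none had an unadjusted P under 0.05 in edgeR, and DESeq2 called 1, SEMA3A, at a higher level in DKO. Clones lacking OGG1 against those with it gave 2 calls, SLIT3 and SEMA3A, against 1.57%, and nothing is read from the SLIT3 call, whose libraries include those it was chosen on. For SEMA3A this was a log2 fold change of -2.14 ± 0.76 (P of 0.0247, adjusted p of 1.00), a call lost without WT clone 2 (-1.65), MUTYH-/ clone 8 (-1.15), OGG1-/ clone 22 (-1.72) or DKO clone 4 (-1.92). Clones lacking MUTYH against those with it gave 0 calls in edgeR and in DESeq2 and none at an unadjusted P under 0.05, against 0.721%.

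By the call on the interaction, the change from WT to MUTYH-/ and that from OGG1-/ to DKO differed in 2 of the 10 genes, against 2% of all tested genes. Both DKO clones descend from 1 OGG1-/ clone, so MUTYH loss and clone history cannot be told apart in the second change. OGG1-/ clone 22, which matches that parent, held only 2 counts of SEMA3A. For SEMA3A the log2 fold change was -3.12 ± 1.05 from WT to MUTYH-/ and 2.03 ± 1.13 from OGG1-/ to DKO, a difference of 5.16 ± 1.53 (P of 0.0112). For SLIT1 it was -0.76 ± 0.40 and 0.59 ± 0.39, a difference of 1.34 ± 0.56 (P of 0.0462). Both adjusted p were 1.00 in edgeR. The SEMA3A call held without any 1 library, with differences of 4.17 without WT clone 2 to 7.37 without OGG1-/ clone 1. The SLIT1 call was lost without 6 of the 8 libraries, where the difference ranged from 0.97 without MUTYH-/ clone 7 to 1.52 without DKO clone 14, and held without MUTYH-/ clone 8 or OGG1-/ clone 1. NRP2 showed a difference of 1.33 ± 0.75 and SEMA3C one of -3.40 ± 1.59, neither called in edgeR. DESeq2 called 4 of the 10, with SLIT3 and SEMA3C beside these 2.

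For most of these genes the 2 clones of a genotype differed as much as the genotypes did. Fold differences between clones reached 16.7 for SEMA3C (MUTYH-/), 8.65 for SEMA3A (OGG1-/), 5.58 for SEMA3D (WT), 4.44 for ROBO2 (WT) and 3.95 for ROBO1 (OGG1-/). The largest was 1.85 for SLIT1 and 2.76 for SLIT3. After each genotype's mean was removed, a single principal component held 49.9% of the variance over the tested genes. It separated WT clone 2, MUTYH-/ clone 8, OGG1-/ clone 22 and DKO clone 14 (a first set) from the other 4 clones (a second set). The share of mitochondrially encoded counts was lower in the first set in each genotype, at 3.75% to 5.02% against 5.14% to 7.46%, and its part in the differences below was not tested.

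SLIT2 and ROBO1, a ligand and its receptor, were lower in the first set in 4 of 4 genotypes. For SLIT2 the log2 ratio of the first-set to the second-set clone was -1.60 in WT, -1.43 in MUTYH-/, -0.74 in OGG1-/ and -0.51 in DKO, and for ROBO1 it was -0.37, -0.71, -1.98 and -0.39. NRP1 was lower in 3 of 4 and level in WT (0.02). The sets were found in these libraries with all genes, so the ratios are a description. Outside the 10 genes, the plexins PLXNA1 and PLXNA3 and the cadherin CDH2 were also lower in the first set in all 4 genotypes. The order is thus not particular to SLIT2 and ROBO1, and its share over all tested genes was not computed. SLIT3 and SEMA3A went the other way in 3 of 4 genotypes, with OGG1-/ as the exception for both. Adding the set to the fit as a block left the called genes among the 10 at 2 in each knockout against WT, and the log2 fold changes of SEMA3A were -3.20 ± 0.86, -4.38 ± 0.98 and -2.61 ± 0.84 for MUTYH-/, OGG1-/ and DKO.

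**Figure D3:**
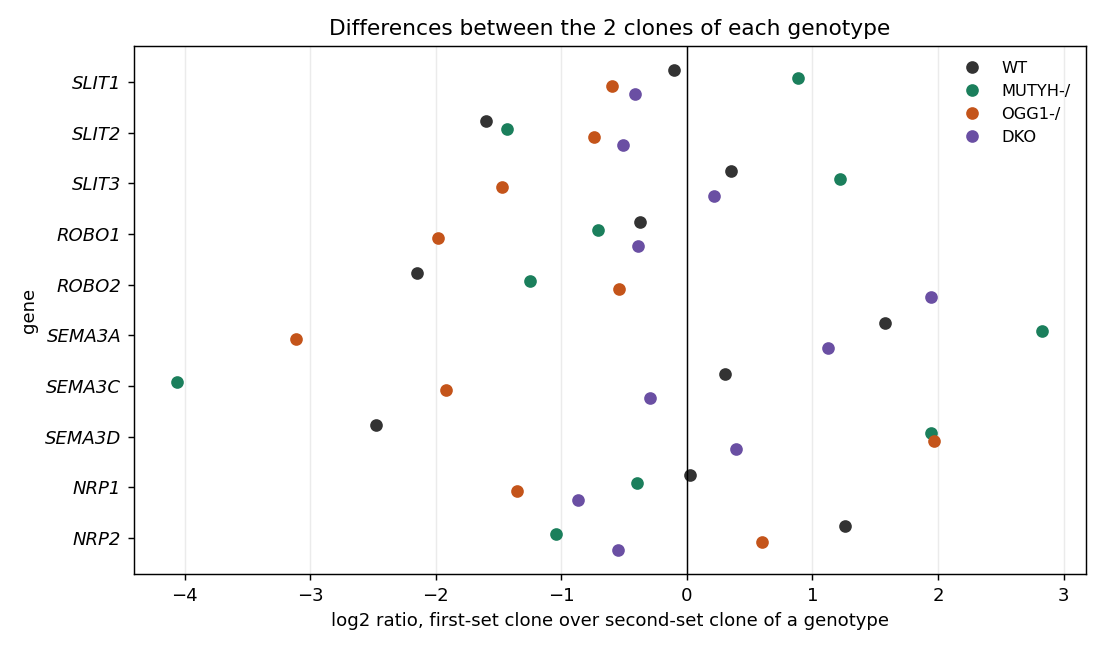
Log2 ratio of CPM between the 2 clones of a genotype for each guidance gene (horizontal axis, first-set clone over second-set clone), with 1 point per genotype. SLIT2 and ROBO1 lie left of 0 in all 4 genotypes, and SEMA3A, SEMA3D and SEMA3C spread most.

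The H2O2 libraries asked how WT cells had changed 24 h after oxidant exposure, each clone against itself. SEMA3A was lower after treatment in both clones, going from 17.2 to 6.83 CPM in clone 2 and from 5.77 to 3.52 CPM in clone 11. NRP1 went from 66.0 to 47.5 CPM and from 64.9 to 47.3 CPM, and ROBO1 from 147 to 124 CPM and from 190 to 127 CPM. NRP2 went from 7.01 to 7.64 CPM in clone 2 and from 2.93 to 13.97 CPM in clone 11. NRP1 and ROBO1 were thus lower in both clones as well, and the NRP2 difference was almost all in clone 11, from 66 to 317 counts.

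The other 6 genes were not called with or without pairing of the clones. SLIT3 went from 6.35 to 4.19 CPM and from 4.97 to 3.79 CPM, SLIT1 from 2.89 to 2.32 CPM and from 3.10 to 2.64 CPM, and SLIT2 from 24.5 to 29.6 CPM and from 74.1 to 81.6 CPM. ROBO2 went from 7.19 to 6.83 CPM and from 31.9 to 25.7 CPM, SEMA3C from 1.64 to 1.502 CPM and from 1.33 to 1.01 CPM, and SEMA3D from 2.93 to 2.69 CPM and from 16.4 to 9.65 CPM. All 10 genes moved the same way in both clones, SLIT2 and NRP2 up and the other 8 down. The share of all tested genes that did so was not computed, so nothing is read from this count. Some moves were small, such as 158 to 168 counts for NRP2 and 66 to 59 for SEMA3D in clone 2. For SLIT2, ROBO2 and SEMA3D the gap between the clones was wider than the change with treatment. The same held for SEMA3A between the untreated clones, with a log2 gap of 1.58 against changes of -1.33 and -0.71.

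In the edgeR test without pairing, none of the 10 genes was called (1.75% of 16997 tested genes were), 2 had an unadjusted P under 0.05, and DESeq2 called 2, SEMA3A and NRP2. The 2 were NRP1, with a log2 fold change of -0.47 ± 0.13 (P of 0.0106), and ROBO1, with -0.43 ± 0.16 (P of 0.0415), both with an adjusted p of 0.638. With the clone as a block, SEMA3A and NRP2 were called, against 2.78% of all tested genes. SEMA3A had a log2 fold change of -1.06 ± 0.22 and an adjusted p of 0.0289 in edgeR, the only 1 of the 10 under 0.05 in this fit, against 2.57% of all tested genes. NRP2 had 1.13 ± 0.37 with an adjusted p of 0.121, NRP1 -0.47 ± 0.12 with 0.0653, ROBO1 -0.42 ± 0.13 with 0.11 and SLIT3 -0.50 ± 0.24 with 0.252. Other fits with the block, added after the data were seen, gave adjusted p of 0.00013 (no filter on low counts) to 0.0818 (DESeq2) for SEMA3A, 3.7e-05 (no filter) to 0.786 (DESeq2) for NRP2 and 0.0316 (no filter) to 0.181 (DESeq2) for NRP1.

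These blocked values rest on 1 residual degree of freedom. Without the block, leaving out the untreated library of WT clone 2 but not its treated one put SEMA3A at -0.17. Leaving out the untreated library of WT clone 11 put it at -1.74. NRP2 stood at 1.87 and 0.62 in the same fits. These fits set both treated clones against 1 untreated clone, so the gap between the clones enters them. Within clones 2 and 11 the log2 ratio of treated to untreated was -1.33 and -0.71 for SEMA3A, and 0.124 and 2.25 for NRP2. Treated libraries had 2.995% and 3.38% mitochondrially encoded counts and untreated WT had 5.02% and 5.14%, and the part of this in the changes was not tested. SLIT3 and SEMA3A were lower both in the knockouts and after H2O2. Both comparisons use the same untreated WT libraries, so they are set side by side only, and the treated values stayed above every knockout library for both genes.

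**Figure D4:**
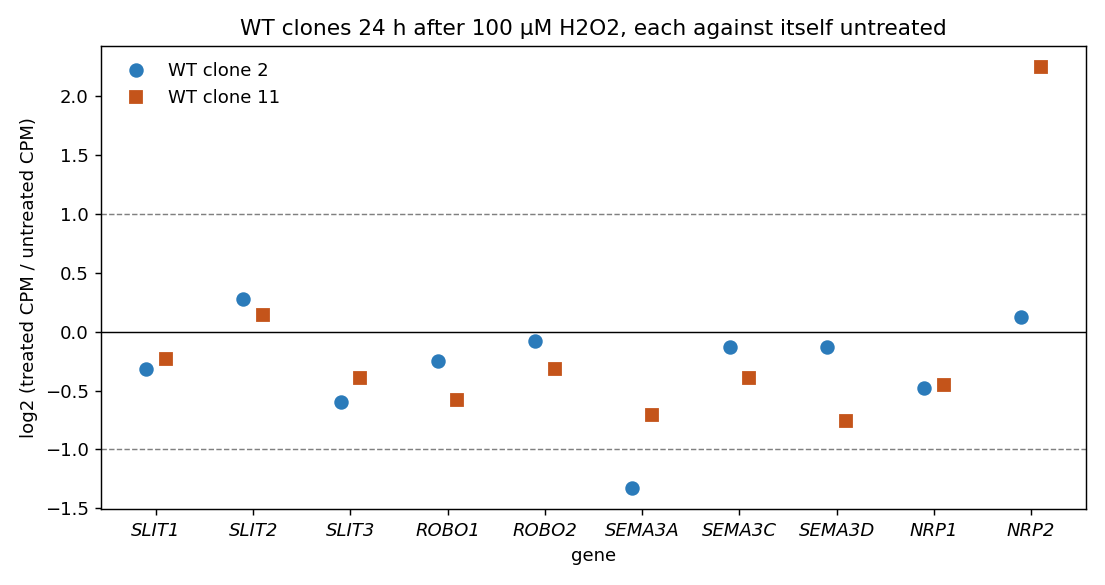
Log2 ratio of treated to untreated CPM for each guidance gene (vertical axis) in WT clone 2 (circles) and WT clone 11 (squares), 24 h after 100 µM H2O2. Dashed lines mark 1 either way. The 2 clones lie on the same side of 0 for every gene, SEMA3A is lowest in clone 2 and SEMA3D in clone 11, and NRP2 is above 1 in clone 11 only.

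Other genes of the same pathways were taken from lists of 99 genes, of which 82 were tested between genotypes. Of 13 tested SLIT and ROBO partners, which include the SRGAP proteins that ROBO recruits, none was called by edgeR or DESeq2 between genotypes or after H2O2, and at most 3 had an unadjusted P under 0.05 in 1 edgeR comparison, that with the clone block. SRGAP2 measured 103.4 to 138.3 CPM, ENAH, an actin regulator, 241 to 441 CPM, and dystroglycan (DAG1), which binds SLITs, 159 to 295 CPM. Of 8 tested plexins none was called by DESeq2 or by edgeR without a block of clone sets, with at most 3 at an unadjusted P under 0.05. With the sets as a block, PLXNC1 was called in the interaction (-1.55 ± 0.58, adjusted p of 0.689). PLXNA1 and PLXNA3, plexins through which neuropilins signal, measured 118 to 235 CPM and 119 to 235 CPM, while PLXNA4 had at most 1 count.

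Of 4 tested class 3 semaphorins outside the set (SEMA3B, SEMA3E, SEMA3F and SEMA3G) none was called by DESeq2 or by edgeR without a block of clone sets, with at most 1 at an unadjusted P under 0.05 between genotypes and 3 after H2O2 with the clone block. The same held for calls of 12 tested netrins and netrin receptors between genotypes, with at most 1 at an unadjusted P under 0.05. With the sets as a block, SEMA3G was called in OGG1-/ against WT (-1.51 ± 0.57, adjusted p of 0.68) and UNC5A, a netrin receptor, in DKO against WT (1.81 ± 0.52, adjusted p of 0.58). Among the 99 genes, 1 was called by edgeR in each knockout against WT. FLT4, a receptor for VEGFC that can pair with NRP2, was lower in MUTYH-/ (-1.19 ± 0.33), CHL1, an adhesion protein that acts with NRP1 in the SEMA3A response, was lower in OGG1-/ (-3.88 ± 1.46), and NRCAM, an adhesion protein that acts with NRP2, was higher in DKO (1.77 ± 0.38). CHL1 was 0.271 and 0.222 CPM in OGG1-/ but 1.20 and 13.4 CPM in MUTYH-/ and 9.01 and 1.28 CPM in DKO. NRCAM was 8.34 and 5.52 CPM in DKO and 1.56 to 3.28 CPM in the other 6 untreated libraries, with no overlap. The share of all tested genes with that order was not computed. As shares of the tested list each of these 3 calls was 1.22%, near the share of all genes. None of the 3 had an adjusted p under 0.05 in edgeR. DESeq2 called 2, 3 and 2 of the 82 in MUTYH-/, OGG1-/ and DKO. Among them was DPYSL3, a cytoplasmic mediator of the semaphorin response, lower in all 3 (-1.90 ± 0.75, -1.75 ± 0.75 and -1.85 ± 0.75, adjusted p of 1.00 in each), and with the sets as a block edgeR called it in MUTYH-/ and DKO. The 4 neuron markers also summed higher in DKO, to 2.60 and 3.18 CPM against 1.54 to 1.69 CPM in the other untreated libraries. None was at 0 in all libraries of a group, but only 1 of the 4 had a mean of at least 1 CPM. DCX had at most 4 counts and SNAP25 at most 11. SYN1 was called in DKO against MUTYH-/ (1.65 ± 0.68, adjusted p of 1.00). The part of these markers in the NRCAM and SLIT1 differences was not tested.

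In DKO against OGG1-/, 4 of the 82 were called (4.88%), against 1.44% of all tested genes. MET, the receptor for hepatocyte growth factor, whose outer part holds a sema domain, rose from 40.9 and 37.8 CPM in OGG1-/ to 88.3 and 106 CPM in DKO, a log2 fold change of 1.30 ± 0.15. Its P was the smallest of all 17881 genes, with an adjusted p of 0.854 in edgeR and 8.7e-08 in DESeq2. CHL1 (4.36 ± 1.47) and NRCAM (2.08 ± 0.39) were higher and SEMA6D, a membrane semaphorin, was lower (-1.49 ± 0.52). In DKO against MUTYH-/, NRCAM (1.43 ± 0.37) and FLT4 (1.13 ± 0.33) were higher, and in clones lacking MUTYH against those with it CHL1 (2.66 ± 0.94) and NRCAM (1.21 ± 0.27) were. None of these calls of CHL1, NRCAM, SEMA6D and FLT4 had an adjusted p under 0.05 in edgeR. After H2O2, SEMA5B, a membrane semaphorin, was lower without the block (-1.08 ± 0.39, adjusted p of 0.638). With the clone as a block, SEMA5B (-1.06 ± 0.35, adjusted p of 0.125) and UNC5B, a netrin receptor (1.09 ± 0.23, adjusted p of 0.0299), were called. UNC5B went from 8.21 to 13.5 CPM in clone 2 and from 3.24 to 9.47 CPM in clone 11.

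The genes whose log2 CPM followed a given gene most closely over the 10 libraries were sought among 14770 genes with a mean of at least 1 CPM. For SLIT3 these were ITSN2, MAN1A2 and LPGAT1, with Pearson's r of 0.963, 0.961 and 0.960. For SEMA3A it was MAN1A1 (0.941), for SEMA3D TAL1 (0.951), for ROBO2 ADGRL3 (0.966), for SLIT2 CLIP4 (0.952) and for ROBO1 LNPEP (0.952). ITSN2 ranged only from 40.7 to 56.5 CPM over libraries in which SLIT3 ranged 0.311 to 6.35 CPM, and TAL1 ranged from 2.002 to 55.2 CPM. The largest of so many values over 10 libraries from 8 clones is high by selection, and these are descriptions.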

How the data were processed

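RNA was measured in bulk in 10 libraries of HAP1 clones. The authors sequenced them on a DNBseq platform, aligned reads to GRCh38 with HISAT2 2.2.1 and counted reads per gene with featureCounts and the Ensembl GRCh38.p13 annotation, and the deposited values are raw counts that were not normalized. The handling of strand and of reads with several matches is not given in the sources used here. Per the labels, FastQC 0.11.9 and edgeR 3.42.4 were also used. The H2O2 table holds copies of the 2 untreated WT libraries, identical to those in the genotype table. No column was left unmatched to a sample.

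Counts were scaled by TMM (factors 0.967 to 1.01) and tested with the quasi-likelihood F test of edgeR 4.0.16 (R 4.3.3, legacy dispersion) after filterByExpr, over all 8 untreated libraries (17881 genes, 4 residual degrees of freedom) or the 4 WT libraries (16997 genes, 2 degrees). The call followed the threshold of the study (log2 fold change beyond 1 either way, unadjusted P no higher than 0.05), and Benjamini-Hochberg adjusted p-values over all tested genes are given beside it. Errors are standard errors of the fit, and CPM values are TMM-scaled. At 1 count per 1000000 in the smallest library, before TMM scaling, counting alone gives a coefficient of variation of 21.2%. The alternatives were DESeq2 1.42.0, its size factors, other filters, single libraries left out and blocks. The fit was tested on simulated data with known changes.

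Treated and untreated WT libraries came from the same 2 clones, and the difference between the clones correlated between treated and untreated libraries with r = 0.681 across 16997 genes, so the clone number paired them. Genotypes share no clone numbers.

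The genes and lists were chosen with earlier results of these data known. The 10 genes are always named, along with list genes called in a comparison (at most 4 per list), the most similar genes, and SEMA3E, which was chosen after its values were seen. The lists were SLIT and ROBO partners, class 3 and membrane semaphorins, plexins, semaphorin signalling genes, neuropilin ligands and co-receptors, netrins, antisense transcripts and cell type markers. Gene positions are from GENCODE release 44, where 65.2% of gene names were found, and kilobases are its merged exons.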

Additional observations from a re-analysis of the deposited data

Results flagged for a closer look

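The difference between the change from OGG1-/ to DKO and that from WT to MUTYH-/ was tested as an interaction in edgeR. Of the 10 genes 2 passed the call, and of 82 tested pathway partners 3 did, against 2% of all tested genes, each with an adjusted p of 1.00. The DKO clones share an OGG1-/ parent, so MUTYH loss and clone history cannot be told apart here. On the log2 scale the difference was 5.16 ± 1.53 (SE) for SEMA3A and 1.34 ± 0.56 for SLIT1. Outside the set it was 1.74 ± 0.54 for NRCAM, 1.91 ± 0.47 for FLT4 and 1.33 ± 0.21 for MET. For MET the DESeq2 Wald test gave an adjusted p of 0.00165. MET was 54.1 and 61.6 CPM in WT, 55.7 and 58.3 CPM in MUTYH-/, 40.9 and 37.8 CPM in OGG1-/ and 88.3 and 106 CPM in DKO, so both OGG1-/ clones were lowest and both DKO clones highest. The share of all tested genes with that order was not computed. FLT4 was 35.1 and 24.6 CPM in WT, 8.60 and 17.6 CPM in MUTYH-/, 16.3 and 18.5 CPM in OGG1-/ and 28.3 and 28.6 CPM in DKO. Groups of 2 libraries were too small to look for single libraries that stand apart.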

How the results depend on the processing

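For single genes, 176 of the recomputed log2 fold changes kept their direction and their side of the call, 27 lost the call, 15 gained it and 0 reversed. These totals include SLIT3 in comparisons that use libraries on which it was chosen, so nothing is read from its part in them. The number of the 10 genes called moved by more than 1.5 times in these cases. When every library had to hold 10 counts or more, SLIT3 and SEMA3A were not tested between genotypes, and the count was 0 in MUTYH-/, OGG1-/ and DKO against WT and in clones lacking OGG1 against those with it, and 1 in DKO against MUTYH-/ and in the interaction. DESeq2 gave 1 in DKO against OGG1-/, 4 in the interaction and 2 after H2O2, and no filter gave 4 in the interaction, where the cause was not tested. With the clone as a replicate block after H2O2 the count was 2 instead of 0. With the block it was 2 with DESeq2 size factors, the newer edgeR dispersion, no filter or the stricter filter, and 1 with the DESeq2 test, alternatives chosen after seeing the data. The set of clones as a block changed no count.

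Leaving out 1 library at a time gave counts of 0 to 4 in MUTYH-/ against WT, 2 to 4 in OGG1-/, 1 to 2 in DKO, 0 to 2 in DKO against MUTYH-/, 0 to 1 in DKO against OGG1-/, 1 to 2 for OGG1, 0 to 1 for MUTYH, 1 to 4 in the interaction and 0 to 2 after H2O2. A group left with 1 library was assumed to vary like the others. Genes near 1 CPM, such as SLIT3 in clones lacking OGG1, rest on few counts.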
